A study of Mus musculus with 11 samples.

Results

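The dystrophin and sarcoglycan complex of the heart was followed through 8 of its genes, dystrophin (Dmd), utrophin (Utrn), dystrobrevin alpha (Dtna), dystroglycan (Dag1), the alpha, beta and delta sarcoglycans (Sgca, Sgcb and Sgcd) and sarcospan (Sspn). They were found by symbol among the 22608 genes of the heart expression table, and all 8 were in it. RNA from the hearts of 11 male mice was sequenced, and the source was labelled as ventricle. WT VEH (n = 2) and WT JZL184 (n = 3) mice were wild-type littermates, and CD VEH (n = 3) and CD JZL184 (n = 3) mice carried the complete deletion, a hemizygous loss on chromosome 5 of the interval that is lost in Williams-Beuren syndrome (WBS). Every mouse was on a C57BL/6J background, with the CD line backcrossed for 9 generations, and was 8 to 16 weeks old. JZL184 blocks monoacylglycerol lipase, which breaks down the endocannabinoid 2-arachidonoylglycerol, and was injected daily for 10 days at 8 mg/kg. VEH mice received the vehicle according to the sample titles, while another label calls them untreated. The deletion is present in every cell, so no effect can be assigned to the heart muscle itself.

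In striated muscle, dystrophin ties the actin cytoskeleton beneath the membrane to dystroglycan, whose outer part holds laminin in the basement membrane. The sarcoglycans and sarcospan form a subcomplex that steadies this link, and dystrobrevin and the syntrophins carry signalling proteins on its inner face. Loss of dystrophin causes Duchenne muscular dystrophy, and loss of single sarcoglycans causes limb-girdle dystrophies, with cardiomyopathy in many cases. Utrophin is an autosomal homologue that can stand in for dystrophin. The comparisons ask whether the expression of these genes differs between CD and WT hearts and after inhibition of the lipase.

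The total lay between 69660329 and 92251550 estimated counts per mouse, and the 8 genes had between 1082 and 31167 counts each per mouse. Of the 22608 genes, 11319 had an average log2 CPM of at least 1 and were tested, among them all 8. CPM are counts per 1000000, taken relative to the counts in tested genes after TMM scaling. Gtf2i, Baz1b and Eln lie in the deleted interval, and none overlapped between genotypes, with Gtf2i at 95.2 to 129 CPM in the 5 WT mice and 51.2 to 68.2 CPM in the 6 CD mice. Ventricular muscle markers were abundant, while 6 skeletal muscle markers summed to 1.61 to 2.88 CPM, with the myosin Myh4 under 3 counts in every mouse. The 4 atrial markers summed to 50.5 to 221 CPM, nearly all of it from Nppa, and the other atrial markers reached at most 0.521 (Myl7), 1.69 (Myl4) and 0.188 CPM (Sln). Each mouse was taken as a separate replicate.

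The 8 genes lie on 7 chromosomes in GRCm38. Dmd spans chrX:82948870-85206141 on the plus strand, Utrn chr10:12382188-12869365 on the minus strand, Dag1 chr9:108204634-108263958 on the minus strand and Sspn chr6:145931641-145965223 on the plus strand. Sgca at chr11:94962791-94976327 and Sgcd at chr11:46896253-47988969 share a chromosome and both lie on the minus strand. Sgcb, at chr5:73632749-73647790 on the minus strand, is on the chromosome of the deletion, with 60590044 bases between it and Gtf2i. The values are sums over all transcripts and exons of a gene, so the several promoters of Dmd could not be read apart.

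RefSeq windows of 250 bases before and 50 bases after a start site (GRCm38.p6) were at hand for 7 of these genes, in 10 windows. They are shown for Dmd, Sspn and Sgcd. These genes were lower in CD VEH than in WT VEH mice, rose with JZL184 in CD mice, and hold motifs known from muscle promoters. Capitals mark a CArG box, which serum response factor binds (CCTATTATGG in Dmd), a MEF2 motif (TTATATTTAG in Dmd) and the M-CAT element of TEAD factors (CATTCC or its reverse complement GGAATG), searched on both strands.
Dmd, chrX:82948620-82948919, plus strand: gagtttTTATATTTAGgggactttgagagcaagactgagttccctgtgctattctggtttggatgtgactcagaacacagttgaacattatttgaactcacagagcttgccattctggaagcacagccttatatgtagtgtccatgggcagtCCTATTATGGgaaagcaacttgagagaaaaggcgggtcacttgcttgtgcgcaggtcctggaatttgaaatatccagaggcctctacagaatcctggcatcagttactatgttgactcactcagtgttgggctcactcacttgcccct
Dmd, internal start, chrX:85048045-85048344, plus strand: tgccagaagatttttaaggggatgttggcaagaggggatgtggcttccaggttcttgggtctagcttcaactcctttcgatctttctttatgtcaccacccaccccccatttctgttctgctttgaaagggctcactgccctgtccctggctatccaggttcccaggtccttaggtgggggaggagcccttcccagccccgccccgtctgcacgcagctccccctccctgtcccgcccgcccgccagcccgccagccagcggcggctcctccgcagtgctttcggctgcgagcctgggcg
Sspn, chr6:145933872-145934171, plus strand: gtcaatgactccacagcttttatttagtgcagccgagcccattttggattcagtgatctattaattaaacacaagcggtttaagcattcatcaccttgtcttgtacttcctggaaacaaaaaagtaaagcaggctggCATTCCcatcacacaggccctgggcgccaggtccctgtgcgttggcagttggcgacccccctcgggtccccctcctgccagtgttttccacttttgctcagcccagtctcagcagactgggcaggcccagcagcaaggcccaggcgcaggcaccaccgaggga
Sgcd, chr11:47379276-47379575, minus strand: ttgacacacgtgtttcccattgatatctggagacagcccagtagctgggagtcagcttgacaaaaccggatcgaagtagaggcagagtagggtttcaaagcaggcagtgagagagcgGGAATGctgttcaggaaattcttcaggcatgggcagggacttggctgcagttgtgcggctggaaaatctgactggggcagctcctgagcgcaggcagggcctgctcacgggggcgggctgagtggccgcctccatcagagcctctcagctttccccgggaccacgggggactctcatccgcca
A CArG box was present in 1.63% of 32851 windows of all genes, a MEF2 motif in 3.19% and an M-CAT element in 14.7%. The window at the internal start of Dmd held none of these letters. Neither did those of Dag1 and Sgcb, which fell and rose in the same comparisons as the genes shown, or those of Utrn and Sgca. E-boxes (CANNTG), present in 72.3% of all windows, are not marked. They lay in windows of Dmd, Sspn, Sgcd, Dag1, Utrn and Sgca but not of Sgcb. GATA motifs and ERR half-sites were searched too and had no match in the windows of these genes. A second window of Sspn, chr6:145931623-145931922, also held an M-CAT element and is not printed. The printed windows of Sspn and Sgcd lie inside the gene spans given above, so neither is at the outermost start of its gene. A match describes the letters of the window, and no binding was measured.

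Levels between genes were compared as CPM per kilobase of the longest coding transcript, averaged over the 11 mice. Dag1 had the highest level with 46.4 ± 7.61 CPM per kilobase (SD, n = 11), followed by Sgca with 46.1 ± 3.19, Sspn with 36.6 ± 5.86 and Sgcb with 28.3 ± 4.15. The other genes lay far below, with Sgcd at 9.47 ± 1.69, Dtna at 7.39 ± 0.898, Utrn at 6.39 ± 0.35 and Dmd at 5.84 ± 1.44 CPM per kilobase. Sgcb and Sgcd were the only neighbours in this order whose ranges over mice did not overlap. The order of group means differed between groups. Sgca was above Dag1 in WT JZL184 (44.8 against 41.0 CPM per kilobase) and CD VEH mice (45.8 against 39.1). Dmd was above Utrn in WT VEH (7.76 against 6.23) and CD JZL184 mice (6.66 against 6.44). Mice of a group resembled each other for these genes, with a median coefficient of variation of 2.34% in WT VEH, 4.23% in CD VEH and 3.74% in CD JZL184 mice, but 13.9% in WT JZL184 mice. Mouse B of the WT JZL184 group had the lowest level of 6 of the 8 genes among the 11 mice, Dmd, Dtna, Sgca, Sgcb, Sgcd and Sspn. Its summed cardiomyocyte markers were also the lowest, at 27736 CPM against 32484 to 38007 CPM in the other mice, and a link to the low values was not tested.

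Dmd, the actin-binding anchor of the complex, reached 125 and 106 CPM in the WT VEH mice. It lay at 87.5, 51.8 and 75.6 CPM in WT JZL184 mice and at 67.9, 77.8 and 67.6 CPM in CD VEH mice. The CD JZL184 mice had 103, 90.8 and 105 CPM. Both WT VEH mice were thus above every other mouse, and the CD JZL184 mice were above every WT JZL184 and CD VEH mouse.

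Utrn, the homologue of dystrophin, lay at 81.4 and 72.9 CPM in WT VEH mice, 79.9, 82.2 and 87.1 CPM in WT JZL184 mice, 77.8, 78.2 and 72.3 CPM in CD VEH mice and 82.2, 76.1 and 81.0 CPM in CD JZL184 mice. Its groups overlapped in each comparison of groups made here. Dtna, the partner of dystrophin on the inner face of the membrane, had 51.8 and 53.5 CPM in WT VEH mice, 55.6, 36.2 and 46.0 CPM in WT JZL184 mice, 41.7, 43.4 and 44.6 CPM in CD VEH mice and 49.4, 44.4 and 44.8 CPM in CD JZL184 mice. The CD mice, with either treatment, were below both WT VEH mice, whereas WT JZL184 mice spread around them.

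Dag1, whose product spans the membrane and holds laminin, lay at 307 and 297 CPM in WT VEH mice. It was at 228, 228 and 240 CPM in WT JZL184 mice and at 223, 240 and 202 CPM in CD VEH mice, which overlapped with each other and lay below WT VEH. In CD JZL184 mice it was at 293, 318 and 316 CPM, around the WT VEH level. Sspn, the tetraspanin-like partner of the sarcoglycans, was likewise lower in WT JZL184 and CD VEH mice. It had 187 and 185 CPM in WT VEH mice, 134, 132 and 149 CPM in WT JZL184 mice, 141, 150 and 151 CPM in CD VEH mice and 192, 191 and 202 CPM in CD JZL184 mice. No WT JZL184 or CD VEH mouse reached the level of any WT VEH or CD JZL184 mouse, and each CD JZL184 mouse was above both WT VEH mice.

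Among the sarcoglycans, Sgcb had 123 and 127 CPM in WT VEH mice, 105, 77.6 and 96.3 CPM in WT JZL184 mice, 98.5, 101 and 92.8 CPM in CD VEH mice and 124, 118 and 117 CPM in CD JZL184 mice. Sgcd had 26.7 and 26.2 CPM in WT VEH mice, 23.6, 15.2 and 22.3 CPM in WT JZL184 mice, 19.3, 20.1 and 19.996 CPM in CD VEH mice and 28.2, 26.4 and 27.2 CPM in CD JZL184 mice. Both separated WT VEH and CD JZL184 mice from the WT JZL184 and CD VEH mice without overlap. Sgca, the adhalin of striated muscle, did not, with 77.03 and 79.8 CPM in WT VEH mice, 86.5, 67.0 and 78.0 CPM in WT JZL184 mice, 75.5, 84.2 and 77.4 CPM in CD VEH mice and 79.8, 84.5 and 84.1 CPM in CD JZL184 mice. How many of all tested genes separate the groups without overlap was not counted.

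**Figure D1:**
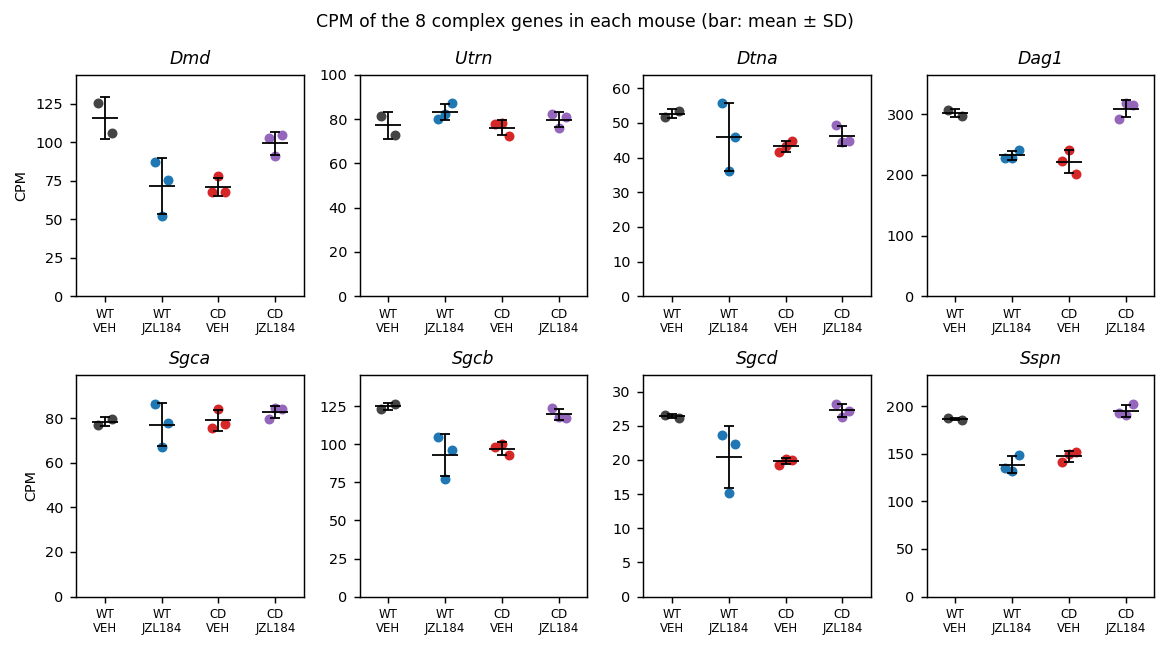
CPM (vertical axes, from 0) of the 8 complex genes in each of the 11 mice by group, with points for mice and bars for the group mean ± SD. Dmd, Dag1, Sgcb, Sgcd and Sspn were lower in WT JZL184 and CD VEH mice than in WT VEH and CD JZL184 mice without overlap between these pairs of groups, whereas Utrn and Sgca overlapped. The share of all tested genes without such overlap was not counted.

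In CD VEH compared with WT VEH hearts, 5 of the 8 genes were lower and 0 were higher. Among all tested genes, 15.4% were lower and 15% were higher at the same threshold, an adjusted p under 0.05. Dmd fell from 116 ± 13.6 CPM (SD, n = 2) to 71.1 ± 5.82 CPM (SD, n = 3), which is -0.70 ± 0.17 (SE) as a log2 fold-change, with an edgeR adjusted p of 0.0112. Dag1 had a log2 fold-change of -0.45 ± 0.08 (edgeR adjusted p = 0.00426), the smallest adjusted p of the 8 genes in this comparison. Sgcd (-0.42 ± 0.14), Sgcb (-0.36 ± 0.10) and Sspn (-0.34 ± 0.07) fell too, with edgeR adjusted p-values of 0.0386, 0.0214 and 0.00681. Utrn (-0.02 ± 0.07) and Sgca (0.01 ± 0.09) had log2 fold-changes close to 0. Dtna, at -0.28 ± 0.13, was lower in each CD VEH mouse than in both WT VEH mice but missed the threshold (edgeR adjusted p = 0.115). The median log2 fold-change was -0.35 over the 8 genes and 0.01 over all tested genes. Without WT VEH mouse C, 0 of the 8 genes passed the edgeR threshold (5 at an unadjusted p under 0.05) and 3.41% of all genes did, with Dmd at -0.58 (adjusted p = 0.106) and Dag1 at -0.42 (adjusted p = 0.0526), and leaving out WT VEH mouse D, CD VEH mouse A or CD VEH mouse E left 3 genes in each case, beside 10.7%, 17.1% and 17.5% of all genes. Sgcd also lost its call without CD VEH mouse C, CD JZL184 mouse A or CD JZL184 mouse E, and with upper-quartile scaling (-0.37, adjusted p = 0.0508). Dtna gained a call without WT JZL184 mouse A or B and when the model held just the WT VEH and CD VEH mice (-0.28, adjusted p = 0.0103, beside 35% of all genes).

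In WT mice, JZL184 lowered 4 of the 8 genes and raised 0, beside 14% lower and 15.4% higher among all tested genes. Dmd had a log2 fold-change of -0.69 ± 0.17 (edgeR adjusted p = 0.0119), a drop of 38.1%. Sspn and Sgcb both changed by -0.43, with SEs of 0.07 and 0.10, and Dag1 by -0.38 ± 0.08. Their edgeR adjusted p-values were 0.00285, 0.0111 and 0.00739. Sgcd, at -0.37 ± 0.14, did not pass (edgeR adjusted p = 0.0589) although its groups did not overlap. Utrn was at 0.11 ± 0.07, Dtna at -0.20 ± 0.13 and Sgca at -0.02 ± 0.09. The median over the 8 genes was -0.38. The 2 WT VEH mice also served as controls of the CD VEH comparison, so the likeness between both sets of values is not independent. Without WT VEH mouse C only Sspn passed (-0.42, adjusted p = 0.0401), beside 4.93% of all genes, while without WT JZL184 mouse B the number called was 4 beside 18.5% and Dmd was at -0.50 (adjusted p = 0.0119). Without WT JZL184 mouse A it was 6 beside 39.5% of all genes, and without WT VEH mouse D it was 3 beside 9.11%. When the model held just the WT VEH and WT JZL184 mice, Dmd (adjusted p = 0.0536) and Sgcb (adjusted p = 0.068) lost their edgeR calls. With the mouse letter of the column names as a replicate block, a fit added after seeing the data, Dag1 lost its call (adjusted p = 0.0919), beside 5.29% of all genes called.

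In CD mice, JZL184 raised 5 of the 8 genes and lowered 0, where 16.8% of all tested genes rose and 17% fell. These were Dmd, Dag1, Sgcb, Sgcd and Sspn, the genes that were lower in CD VEH than in WT VEH mice; both comparisons use the CD VEH mice. Dmd rose to 99.3 ± 7.43 CPM (SD, n = 3), a log2 fold-change of 0.48 ± 0.15 (edgeR adjusted p = 0.0299). Dag1 rose by 0.48 ± 0.07 and Sspn by 0.40 ± 0.06 on the log2 scale, each with an edgeR adjusted p of 0.00235. Sgcd (0.46 ± 0.12, edgeR adjusted p = 0.0152) and Sgcb (0.30 ± 0.09, edgeR adjusted p = 0.0262) rose by 37.7% and 23.2%. The log2 fold-changes of Utrn (0.07 ± 0.06), Sgca (0.07 ± 0.08) and Dtna (0.10 ± 0.12) did not pass the threshold. The median was 0.35 over the 8 genes and 0.00 over all tested genes. Dmd and Sgcb were past the threshold by little, and leaving out CD VEH mouse A left 2 genes (Dag1 and Sspn) beside 18.5% of all genes, while leaving out CD VEH mouse E, CD JZL184 mouse A or CD JZL184 mouse E left 3, with Dmd at adjusted p-values of 0.0909, 0.0926, 0.081 and 0.0928 in this order. Without the last 3 of these mice in turn, 18%, 21.6% and 18.9% of all genes passed. Without CD JZL184 mouse C, Sgcb was at an adjusted p of 0.0514.

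**Figure D2:**
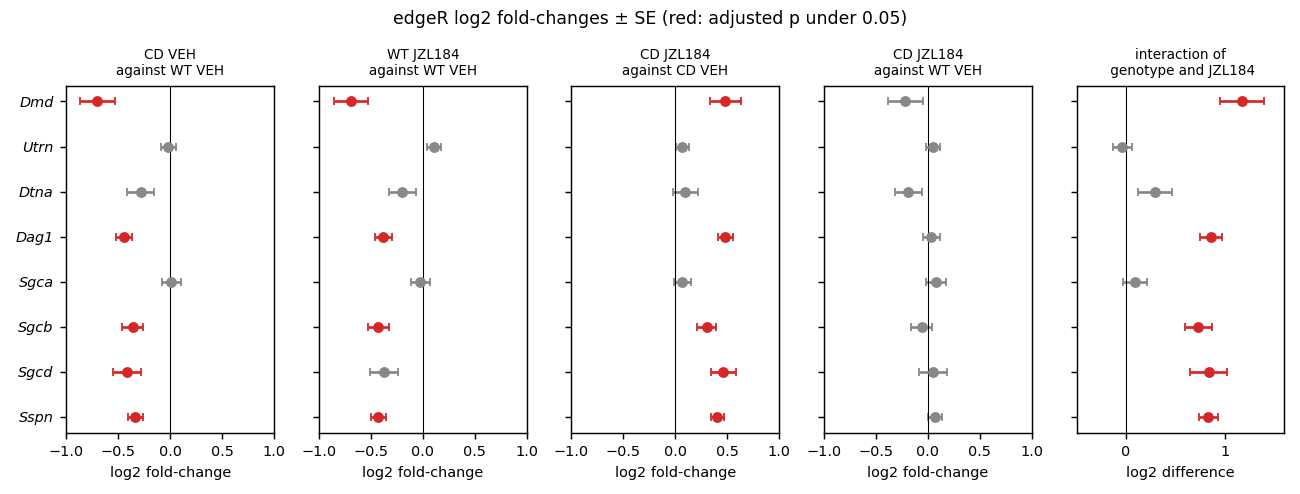
Log2 fold-changes of the 8 complex genes (horizontal axes, with bars of 1 SE) in 4 comparisons and the log2 difference of the JZL184 effects between genotypes, with an axis of its own; red marks an edgeR adjusted p under 0.05. Dmd, Dag1, Sgcb and Sspn are red in each panel except CD JZL184 against WT VEH, Sgcd is red in all but that panel and WT JZL184 against WT VEH, and Utrn, Dtna and Sgca are grey throughout.

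Compared with WT JZL184 mice, CD JZL184 mice had 5 of the 8 genes higher and 0 lower, beside 18.2% higher and 20.1% lower among all tested genes. The log2 fold-changes were 0.50 ± 0.06 for Sspn, 0.47 ± 0.15 for Dmd, 0.42 ± 0.12 for Sgcd, 0.41 ± 0.07 for Dag1 and 0.37 ± 0.09 for Sgcb, with edgeR adjusted p-values from 0.000541 for Sspn to 0.029 for Dmd. Without CD JZL184 mouse A or CD JZL184 mouse E, 3 genes passed, beside 27.7% and 26.1% of all genes. When the model held just these 2 groups, Dmd (adjusted p = 0.0629) and Sgcd (adjusted p = 0.059) lost their edgeR calls. With the mouse letter as a replicate block, just Sspn and Dag1 passed, beside 10.5% of all genes. Compared with WT VEH mice, CD JZL184 mice had 0 of the 8 genes past the threshold by edgeR, 0 at an unadjusted p under 0.05 and 0 by DESeq2. This comparison called few genes at all, with 0.0442% of tested genes higher and 0.141% lower. An unadjusted p under 0.05 was reached by 1059 of the 11319 tested genes, and DESeq2 called 0.919%. Dmd was the farthest from 0, at -0.22 ± 0.17 (edgeR adjusted p = 0.705), and both WT VEH mice remained above the 3 CD JZL184 mice. Dtna, at -0.19 ± 0.13, was likewise lower in each CD JZL184 mouse, and Sspn, at 0.07 ± 0.07, was higher in each. A p above the threshold does not show that the levels were equal.

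The effect of JZL184 was then tested for a difference between genotypes. The difference, CD minus WT, was past the threshold for 5 of the 8 genes, all of them in the positive direction, beside 25.3% of all tested genes with a positive and 26.2% with a negative difference. On the log2 scale it was 1.17 ± 0.23 for Dmd, 0.86 ± 0.11 for Dag1, 0.83 ± 0.18 for Sgcd, 0.83 ± 0.09 for Sspn and 0.73 ± 0.14 for Sgcb. The edgeR adjusted p-values were 0.00143, 0.000199, 0.00301, 0.000144 and 0.00124. Utrn (-0.04 ± 0.10), Sgca (0.09 ± 0.13) and Dtna (0.29 ± 0.18) did not pass, although Dtna did without WT JZL184 mouse A (0.46, adjusted p = 0.0127). The 5 calls were kept without any single mouse.

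The complex genes were also read against transcript length, with which the fold-changes of all genes moved. In CD VEH against WT VEH the median log2 fold-change went from 0.18 in the class of tested genes (of 5 classes of about equal size) with the shortest transcripts to -0.17 in the longest, in WT JZL184 against WT VEH from 0.13 to -0.15, and in CD JZL184 against CD VEH from -0.18 to 0.17. Dmd, Utrn, Dtna and Dag1, with longest coding transcripts of 14910, 12382, 6295 and 5662 bases, are in the longest class, and Sgca, with 1724 bases, is in the shortest. Sspn has 4512, Sgcb 3786 and Sgcd 2450 bases. The part of transcript length in the results was not tested beyond the offset that follows. With an offset for transcript length, the fall of Dmd in CD VEH mice was -0.38 (adjusted p = 0.0612) and its rise with JZL184 in CD mice 0.20 (adjusted p = 0.243), so both calls were lost, as was that against WT JZL184 mice (0.26, adjusted p = 0.113). Dmd kept its call for JZL184 in WT mice (-0.45, adjusted p = 0.0321), and its difference of the JZL184 effects shrank from 1.17 to 0.65 (adjusted p = 0.0134). Utrn then differed in the opposite direction, by 0.26 between CD VEH and WT VEH mice (adjusted p = 0.00949) and by -0.18 in CD JZL184 against CD VEH (adjusted p = 0.02), and passed the threshold for JZL184 in WT mice (0.32, adjusted p = 0.00307), for CD JZL184 against WT JZL184 mice (-0.25, adjusted p = 0.0032) and for the difference of the JZL184 effects (-0.51, adjusted p = 0.000425). Dag1, Sgcb, Sgcd and Sspn kept their calls in both comparisons under this offset.

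**Figure D3:**
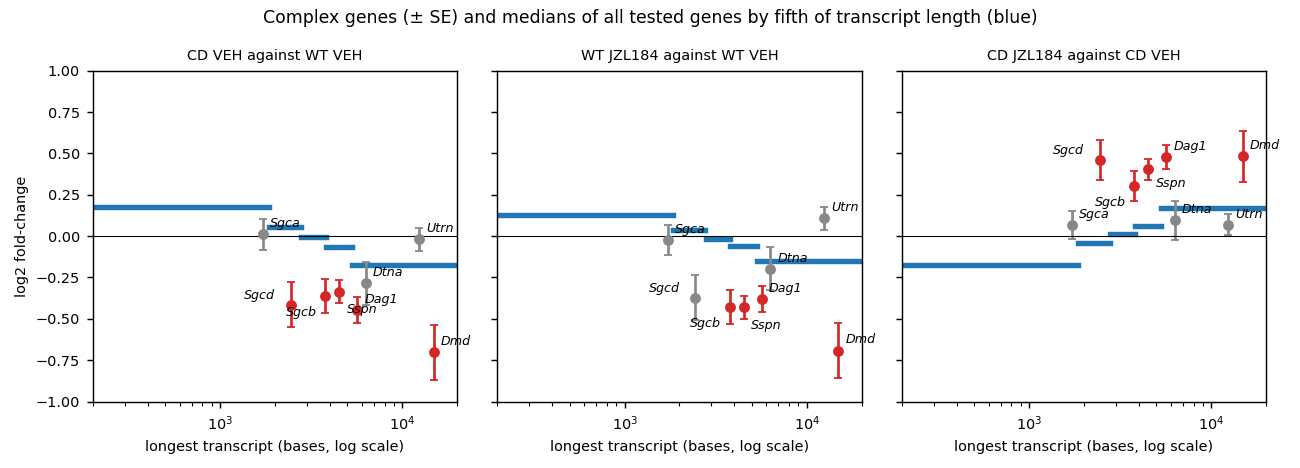
Log2 fold-changes (vertical axes, bars of 1 SE) of the 8 complex genes against the length of the longest coding transcript (log axis, which ends before the longest transcripts of the genome) in 3 comparisons, with blue lines for the median of all tested genes by length class and red points for an edgeR adjusted p under 0.05. The blue lines fall from 0.18 to -0.17 in CD VEH against WT VEH and rise from -0.18 to 0.17 in CD JZL184 against CD VEH, and Dag1, Sspn and Dmd lie farther from 0 than the line of their length class, while Sgcd lies on the opposite side of 0 from its line.

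Markers of other cell types moved with these groups. The summed level of 6 endothelial markers was 548 to 555 CPM in WT VEH and 541 to 629 CPM in CD JZL184 mice, but 717 to 801 CPM in CD VEH and 844 to 892 CPM in WT JZL184 mice. The 6 smooth muscle and pericyte markers (592 to 611 CPM against 831 to 960 CPM), the 6 fibroblast markers (598 to 689 CPM against 765 to 985 CPM) and the 6 macrophage markers (114 to 129 CPM against 157 to 255 CPM) divided the groups in the same way. In CD VEH against WT VEH, 5 of 6 endothelial, 5 of 6 smooth muscle and pericyte, 3 of 6 fibroblast and 5 of 6 macrophage markers were higher, beside 15% of all tested genes. The 6 cardiomyocyte markers summed to 37280 to 38010 CPM in WT VEH, 33420 to 35850 CPM in CD VEH, 27740 to 37620 CPM in WT JZL184 and 35800 to 37930 CPM in CD JZL184 mice, and 1 of the 6 was lower in CD VEH mice, beside 15.4% of all tested genes. Markers of red blood cells were highest in CD VEH mouse A, at 13290 CPM against at most 3740 CPM in the other mice. The mitochondrial genome took 39.4 to 41.2% of counts in WT VEH and 36.4 to 40.1% in CD JZL184 mice, but 43.5 to 44.7% in CD VEH and 45.0 to 46.6% in WT JZL184 mice. In these bulk samples fewer cells of a type and less RNA per cell cannot be told apart, and the part of these shifts in the results was not tested. When the counts were scaled to the cardiomyocyte markers, a choice made after seeing the data that shifts the median of all genes by 0.14 in CD VEH against WT VEH and by 0.23 in WT JZL184 against WT VEH, only Dmd remained past the threshold in these comparisons (-0.57, adjusted p = 0.0268, and -0.50, adjusted p = 0.0183), and 3 genes did for JZL184 in CD mice. Of all tested genes, 6.13%, 18.1% and 10.1% passed in these comparisons with this scaling. The difference of the JZL184 effects stayed past the threshold for 5 genes, beside 40.6% of all genes. This scaling shifts the median difference of all genes by -0.35, and the values of 0.87 for Dmd, 0.51 for Dag1, 0.40 for Sgcb, 0.52 for Sgcd and 0.49 for Sspn on the log2 scale lie below those with TMM scaling by about that shift.

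**Figure D4:**
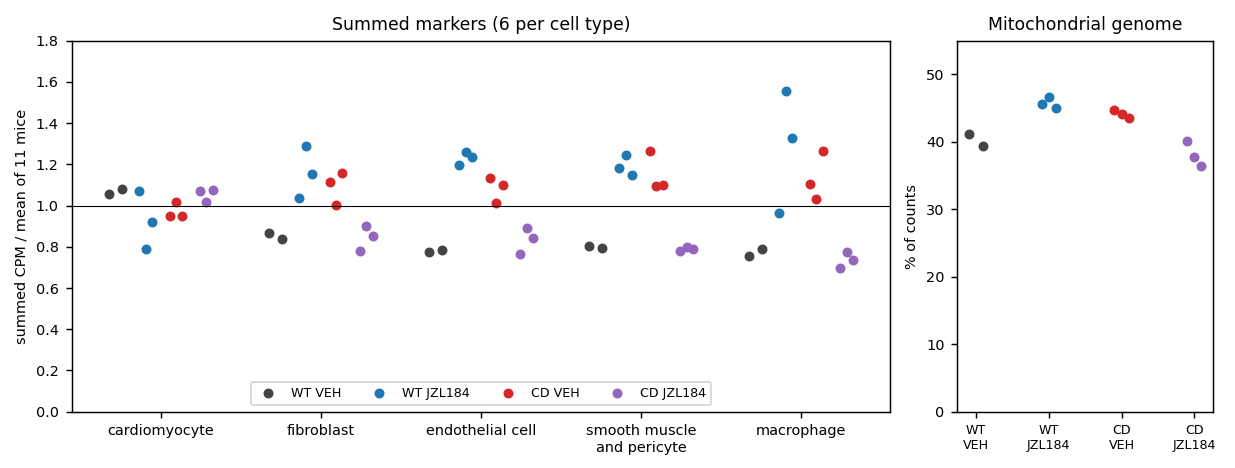
Left, the summed CPM of 6 markers of each of 5 cell types in each mouse, divided by the mean of the 11 mice (axis from 0), and right, the percentage of counts from the mitochondrial genome. Each point is a mouse, colored by group, and the fibroblast, endothelial, smooth muscle and pericyte, and macrophage sums of CD VEH and WT JZL184 mice lie above those of WT VEH and CD JZL184 mice.

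Of 11 further genes of the complex, 6 were tested, since Sgcz, Sntg1, Sntg2, Nos1 and Drp2 lay below the filter on low counts. In CD VEH against WT VEH, 1 was higher and 1 lower, near the 15% and 15.4% of all tested genes, with a median log2 fold-change of 0.03. The epsilon sarcoglycan Sgce, which replaces the alpha subunit in smooth muscle and other tissues, rose from 9.14 ± 0.105 CPM in WT VEH to 12.8 ± 0.889 CPM in CD VEH mice (log2 fold-change 0.49 ± 0.09, edgeR adjusted p = 0.00481). It was 0.51 ± 0.09 higher with JZL184 in WT mice and fell by 0.45 with JZL184 in CD mice on the log2 scale, opposite to Sgcb. The endothelial, smooth muscle and pericyte, fibroblast and macrophage markers all moved in the direction of Sgce, and a link was not tested.

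On the outer face of the membrane, 0 of 9 genes for dystroglycan ligands passed in CD VEH against WT VEH by edgeR, beside 30.4% of all tested genes. At an unadjusted p under 0.05 there were 3, beside 4939 of all 11319 tested genes, and DESeq2 called 1, beside 34.5%. With JZL184, 1 rose and 2 fell in WT mice and 3 rose and 1 fell in CD mice. Of all tested genes, 15.4% rose and 14% fell in WT mice and 16.8% rose and 17% fell in CD mice, so the counts in WT mice were near those shares. Lama5, a laminin alpha chain, changed by -0.56 ± 0.13 with JZL184 in WT mice and by 0.53 ± 0.12 in CD mice, and the proteoglycan Bgn by 0.51 ± 0.14 and -0.37 ± 0.12. Among 17 tested genes for the glycosylation of dystroglycan, 4 were lower and 2 higher in CD VEH mice, and 3 were lower and 1 higher in WT JZL184 mice. With JZL184 in CD mice, 6 rose and 2 fell. Of all tested genes, 14% to 17% were called in each direction of these comparisons. Dpm3, a subunit of the mannose donor synthase, was 0.41 ± 0.12 higher in CD VEH mice and fell by 0.46 with JZL184 in CD mice.

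Costamere and integrin genes anchor the sarcomere to the membrane beside dystrophin. Of 22 tested, 10 were lower and 2 higher in CD VEH mice, 10 lower and 2 higher in WT JZL184 mice, and 11 rose and 3 fell with JZL184 in CD mice, with median log2 fold-changes of -0.25, -0.30 and 0.34. Of all tested genes, 15.4% were lower and 15% higher, 14% lower and 15.4% higher, and 16.8% rose and 17% fell in these 3 comparisons. The actin crosslinker Flnc changed by -0.66 ± 0.15 in WT JZL184 mice and by 0.64 ± 0.14 with JZL184 in CD mice. The intermediate filament gene Synm went the other way, by 0.33 ± 0.09 in CD VEH mice and 0.58 ± 0.09 in WT JZL184 mice, and Csrp3, a LIM protein of the Z-disc, fell by 0.29 with JZL184 in CD mice. Of 11 tested genes of caveolae and membrane repair, 4 were higher and 1 lower in CD VEH mice, 5 higher and 1 lower in WT JZL184 mice, and 1 rose and 4 fell with JZL184 in CD mice, beside the same shares of all tested genes. Their median log2 fold-changes of 0.13, 0.22 and -0.15 had the opposite sign to those of the complex genes. The repair ligase Trim72 was the gene that fell in CD VEH (-0.41 ± 0.10) and in WT JZL184 mice (-0.40 ± 0.10) and rose with JZL184 in CD mice (0.39 ± 0.09), whereas Anxa1, an annexin, was 0.70 ± 0.17 higher in CD VEH mice and fell by 0.78 with JZL184. The annexins are also expressed outside muscle, and the part of cell type in these values was not tested.

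**Figure D5:**
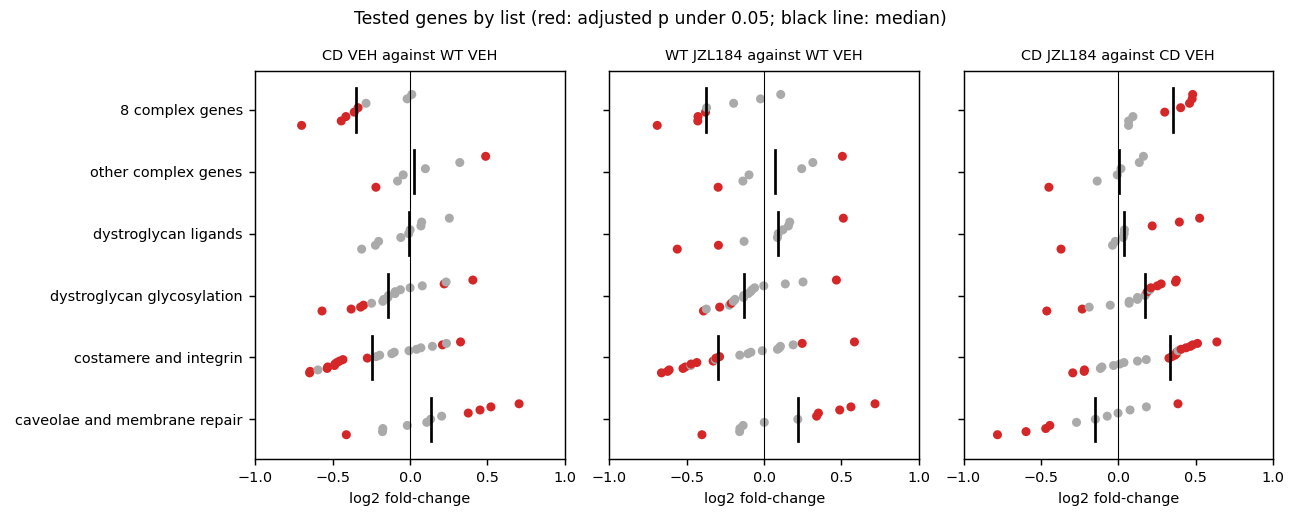
Log2 fold-changes (horizontal axes) of each tested gene of the 8 complex genes and of 5 further lists in 3 comparisons, with red for an edgeR adjusted p under 0.05 and a black line for the median of the list. The medians of the complex genes (-0.35, -0.38 and 0.35) and of the costamere and integrin genes (-0.25, -0.30 and 0.34) lie on the same side of 0 as do those of the glycosylation genes (-0.14, -0.13 and 0.17), and those of the other complex genes (0.03, 0.07 and 0.01) stay near 0.

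Genes with the most similar profile over the 11 mice were sought among 7579 tested genes with a mean of at least 10 CPM, by the root-mean-square difference of mean-centred log2 CPM. Sorbs2 was nearest to Dmd, with a difference of 0.0754 where the profile of Dmd itself had a root-mean-square of 0.351. Ncoa2 was nearest to Dag1 (0.0286), Mfn1 to Sgcb (0.0452), Chmp4c to Sgcd (0.0738) and Map4 to Sspn (0.048). Pdpk1 was second for both Sgcb and Sgcd. Setd5 was nearest to Utrn (0.0387), Zfp317 to Dtna (0.0521) and Eif3c to Sgca (0.0404). The profiles of Utrn, Dtna and Sgca were flatter, with root-mean-squares of 0.0757, 0.169 and 0.0985. None of the 8 complex genes was among the 3 nearest of another. The points share libraries, depth and the shift between groups, so these values describe likeness over the 11 mice only.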

How the data were processed

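Hearts of 11 mice were sequenced by the authors on an Illumina instrument. The deposited table holds estimated counts, 1 row for a gene and 1 column for a mouse; the authors quantified transcripts with Salmon 0.7.2 (Ensembl release 85, mm10) and summed them with tximport 1.2.0, without normalization. The study used DESeq2 1.26.0. Each column name ends in a letter after its group, and no label explains it. Letters recur between groups, and what they mark is not given in the sources used here, so they served as names of mice and as a block in 1 added fit. The number of columns without a group was 0.

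Rounded counts entered 1 edgeR model of 4 groups (edgeR 4.0.16, limma 3.58.1, R 4.3.3; quasi-likelihood test with TMM scaling) with 6 contrasts. Genes averaging at least 1 log2 CPM were kept, and p-values were adjusted by Benjamini-Hochberg over all 11319 of them. The SE is the log2 fold-change divided by the root of F. Biological variation between mice, as a common coefficient, was 9.13%. The series design calls the treated mice biological replicates. For 2 against 3 mice an exact permutation test cannot go below p = 0.1, so none was used. Profiles of log2 CPM had a prior count of 2. GENCODE mouse release 21 gave positions and lengths for 22238 genes. Scripts were tested on simulated data. Alternatives were DESeq2 1.42.0, RLE and upper-quartile factors, other filters, a model of 2 groups, offsets for transcript length and GC content (loess span 0.5), no mitochondrial genes and each mouse left out.

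The 8 genes and the gene lists were chosen with earlier results of these data known. Named list genes have the highest or the lowest log2 fold-change past the threshold in 3 comparisons, and nearest profiles are the 3 smallest differences; some genes of these rules are not reported here. Promoter windows are from RefSeq, GRCm38.p6.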

Additional observations from a re-analysis of the deposited data

Results flagged for a closer look

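For 5 of the 8 complex genes the effect of JZL184 differed between CD and WT mice by a test of the difference itself, the interaction term of the edgeR model, which 51.5% of all tested genes passed in either direction. The log2 difference, CD minus WT, was 1.17 for Dmd, 0.857 for Dag1, 0.728 for Sgcb, 0.833 for Sgcd and 0.833 for Sspn, and with scaling to the cardiomyocyte markers, which shifts the median of all genes by -0.35, it was 0.87, 0.51, 0.40, 0.52 and 0.49 in this order. With an offset for transcript length it was 0.65 for Dmd, 0.67 for Dag1, 0.67 for Sgcb, 0.90 for Sgcd and 0.72 for Sspn. Each of the 5 was higher in the CD JZL184 mice than in the CD VEH mice and lower in the WT JZL184 mice than in the WT VEH mice, without overlap of single mice. The share of all tested genes that separate in this way was not counted. No group held 4 or more mice, so single mice were not searched for outlying values.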

How the results depend on the processing

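Over 22 alternative settings, 944 of 1048 values of single complex genes kept their direction and their side of the threshold, 34 changed sign while past the threshold in neither fit, at most 0.2925 in size, 56 were no longer past it, 12 passed it anew and 2 reversed. The 2 reversed values were those of Utrn with an offset for transcript length, 0.26 for CD VEH against WT VEH and -0.18 for the JZL184 effect in CD mice. With scaling to the cardiomyocyte markers, chosen after seeing the data, 1 complex gene was called for CD VEH against WT VEH, 1 for JZL184 in WT mice, 3 for JZL184 in CD mice and 2 for CD JZL184 against WT JZL184, beside 6.13%, 18.1%, 10.1% and 29.5% of all tested genes. When the model held just the mice compared, 6 were called for CD VEH against WT VEH, 2 for JZL184 in WT mice and 3 for CD JZL184 against WT JZL184, beside 35%, 14.6% and 30.3% of all genes. Leaving out each mouse gave 0 to 6 genes for CD VEH against WT VEH, 1 to 6 for JZL184 in WT mice, 2 to 5 for JZL184 in CD mice, 3 to 5 for CD JZL184 against WT JZL184, 0 for CD JZL184 against WT VEH and 5 to 6 for the difference of the JZL184 effects, beside 3.41% to 37%, 4.93% to 39.5%, 18% to 41%, 26.1% to 43%, 0.106% to 0.291% and 40.5% to 56.6% of all genes, and the lone WT VEH mouse is then assumed to vary like the other groups. The cause of these changes was not tested. Sgcd passed the threshold for JZL184 in WT mice with DESeq2 (-0.37, adjusted p = 0.0347) and with an offset for GC content (-0.33, adjusted p = 0.0499). The columns carry no replicate number but letters that recur between groups. The deviations from the group means correlated over 0.1 in 1 of 8 pairs of mice with the same letter (-0.253 to 0.315). Pairs with different letters were not compared, and deviations within such small groups depend on each other. These values therefore cannot show whether the letters pair mice, and the main model did not pair them. With the letter as a replicate block, added after seeing the data, 6, 3, 5, 2, 0 and 5 genes were called in the order of these 6 comparisons, beside 21.2%, 5.29%, 34.6%, 10.5%, 0.265% and 40.2% of all genes, with Dtna newly called (-0.37, adjusted p = 0.0342) in CD VEH against WT VEH. The 8 genes had at least 1082 counts in each mouse, and no fit at reduced depth was made.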
